A study of Mus musculus with 4 samples.

Results

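The 10 genes described here are the mouse MHC class II genes H2-Aa, H2-Ab1, H2-Eb1, H2-Ea-ps, H2-DMa, H2-DMb1, H2-Oa and H2-Ob, the invariant chain gene Cd74 and the coactivator gene Ciita. They were taken by gene symbol from the 30041 genes listed for each sample, and each of the 10 had a row in every sample. RNA-seq had been carried out on splenic B cells of C57BL/6 mice after stimulation with lipopolysaccharide (LPS) for 72 h, in 2 control and 2 cKO samples. The control mice were Nfkbiz fl/Δ and so already carried 1 deleted allele of Nfkbiz, the gene for the nuclear IκB protein IκB-ζ, in every cell. The cKO mice were Nfkbiz fl/Δ Mb1 cre/+, in which Cre recombinase is made from the Mb1 (Cd79a) locus in B-lineage cells and 1 copy of that locus is replaced. The age of the mice is not given in the sources used here, and nothing says whether the samples came from separate mice, so p-values measure only the spread between these samples.

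MHC class II molecules present peptides from the endocytic pathway to CD4+ T cells. Each is a pair of an α and a β chain, I-A from H2-Aa and H2-Ab1 and I-E from H2-Ea and H2-Eb1. The pair assembles with the invariant chain encoded by Cd74, which blocks the groove and directs the complex to endosomes. There H2-DM (H2-DMa with H2-DMb1) helps to exchange the remnant of the invariant chain for peptide, and H2-DO (H2-Oa with H2-Ob), made mainly in B cells, restrains H2-DM. Ciita encodes the coactivator CIITA, which is recruited by proteins bound to the X and Y boxes of class II promoters, and the plasma cell repressor Blimp-1 (Prdm1) silences it as B cells become plasma cells. In mice of the H-2b haplotype, that of C57BL/6, a deletion removes the promoter and first exon of H2-Ea, and the gene is annotated there as the pseudogene H2-Ea-ps.

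The promoters of 5 members are shown because they carry the box that these genes share. Of the 10 members, 6 had an entry in the RefSeq promoter table (build GRCm38.p6, 250 bases before to 50 bases after each start), and H2-Ab1, H2-Ea-ps, Cd74 and Ciita had none. Each stretch below is 69 bases long and is written 5′ to 3′ on the strand of the gene. Capitals mark the letters TGATTGG, the core of the Y box, and, where present upstream, the letters TGANG of the X2 box at a spacing of 15 to 22 bases.
H2-Aa, chr17:34287855-34287923, minus strand: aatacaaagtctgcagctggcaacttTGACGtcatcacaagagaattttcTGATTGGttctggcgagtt
H2-Eb1, chr17:34305756-34305824, plus strand: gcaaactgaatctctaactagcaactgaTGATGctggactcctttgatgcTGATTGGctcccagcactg
H2-DMb1, chr17:34153078-34153146, plus strand: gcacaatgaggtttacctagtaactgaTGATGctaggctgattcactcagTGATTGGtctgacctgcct
H2-Oa, chr17:34092284-34092352, plus strand: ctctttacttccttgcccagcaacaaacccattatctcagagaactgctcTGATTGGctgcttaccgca
H2-Ob, chr17:34238796-34238864, plus strand: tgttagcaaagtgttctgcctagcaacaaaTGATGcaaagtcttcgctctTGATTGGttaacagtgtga

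On either strand, TGATTGG stood in 7.82% of all 32851 promoter windows of this length (2568 windows). The spaced pair stood in 0.353% (116 windows), again on either strand. Among the members, the pair was found in H2-Aa, H2-Eb1, H2-DMb1 and H2-Ob, with 19, 17, 18 and 15 bases between its parts. H2-Oa held TGATTGG without the upstream letters, and neither of the 2 entries of H2-DMa held TGATTGG in its window. The letters and the spacing were chosen after these promoters had been read, so the matches are a description of sequence and say nothing of binding.

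The deposited value is an RNA-seq score for each gene, and the sources used here do not state its unit. Low scores multiplied by exon length fell on regular steps, as they would for values divided by exon length and library size, and levels of different genes are compared here on that reading. The score sums of the 4 samples were 604.2 to 637.6, and the steps correspond to an inferred 17500000 to 19900000 reads per sample. Nfkbiz, the targeted gene, had scores of 0.0241 and 0.0226 in control and of 0.0127 and 0.0116 in cKO, a difference of -0.94 (SE 0.0956, adjusted p = 0.0282, limma) on the log2(score + 0.0001) scale, which is used for all differences below. Control 2 stood apart from the other 3 samples at genes of chromosome 17 around the class II cluster, as described below, so each sample is given by itself.

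The largest difference among the 10 members lay between the 2 control samples, at H2-Ea-ps, and not between the groups. The fitted differences between cKO and control of the other 9 ran from -0.31 (H2-DMb1) to 0.55 (H2-Ob). Cd74, H2-Aa, H2-Ab1 and H2-Eb1 were among the 159 highest scores of the 30041 genes in every sample. H2-Ea-ps had one of the highest scores in control 2 and a score at or near 0 in the other 3 samples. None of the 10 members passed the limma test between cKO and control at an adjusted p under 0.05. At an unadjusted p under 0.05, 1 member was lower (H2-DMb1) and 1 was higher (H2-Ob) in cKO. Over all 9727 genes that reached a score of 0.005 in 1 sample or more, 1.25% (122 genes) were called lower and 0.812% (79 genes) higher in cKO. At an unadjusted p under 0.05 (limma), 1117 of these genes were lower and 1052 higher, so 1 and 1 of 10 members is near the background. All 10 members passed that filter, H2-Ea-ps through control 2 alone. The median difference of the members was -0.04, beside -0.01 over all genes tested.

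**Figure D1:**
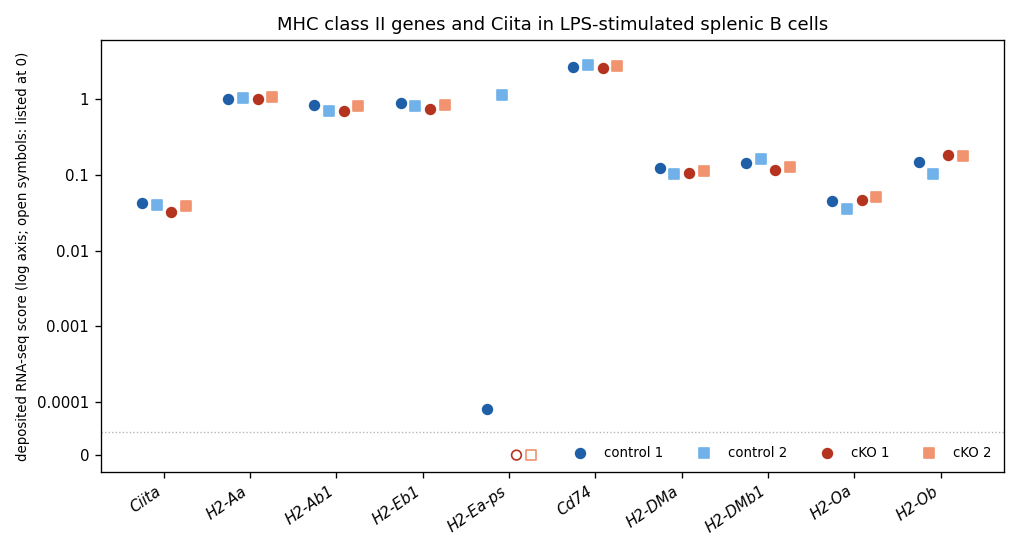
Deposited RNA-seq score (log axis, with listed zeros as open symbols below the dotted line) of each of the 10 genes in control 1, control 2, cKO 1 and cKO 2, 1 symbol per sample. The 4 symbols of each gene lie close together except for H2-Ea-ps, which stands at 1.15 in control 2, at 0.00008 in control 1 and at 0 in both cKO samples.

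Ciita (Entrez 12265, chr16:10480237-10527657 on the plus strand in mm9), the coactivator of the class II promoters, had scores of 0.0423 in control 1, 0.0405 in control 2, 0.032 in cKO 1 and 0.0388 in cKO 2. Both cKO samples were below both controls, and cKO 1 was the lowest. The difference was -0.23 (SE 0.115, 95% interval -0.51 to 0.05, adjusted p = 0.296, limma), and the 2 cKO samples differed from each other by 0.28. The interval corresponds to 0.701 to 1.04 times the control level. Ciita ranked between 2083 and 2788 among all genes by score, in the range of H2-Oa and below the other class II chains read in all 4 samples.

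The α chain of I-A, H2-Aa (Entrez 14960, chr17:34406276-34424772, minus strand), had scores of 1.02 in both controls, 0.998 in cKO 1 and 1.08 in cKO 2. The cKO samples lay on either side of the controls. The means were 1.02 ± 0.0024 in control and 1.04 ± 0.0598 in cKO (SD, n = 2 each), a difference of 0.03 (SE 0.0767, adjusted p = 0.867, limma) with a 95% interval of 0.893 to 1.16-fold. H2-Ab1 (Entrez 14961, chr17:34400154-34406363, plus strand), the β chain of I-A, had scores of 0.846 in control 1, 0.704 in control 2, 0.707 in cKO 1 and 0.813 in cKO 2. Its values overlapped fully, and control 2 minus control 1 (-0.27) was larger in size than the difference between the groups. The difference between the groups was -0.02 (SE 0.12, adjusted p = 0.918, limma), with an interval of 0.801 to 1.21-fold. H2-Aa and H2-Ab1 overlap by 88 bases at their ends on opposite strands, and whether strand was used in the counting is not stated.

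The β chain of I-E, H2-Eb1 (Entrez 14969, chr17:34442828-34453144, plus strand), had scores of 0.886 in control 1, 0.821 in control 2, 0.741 in cKO 1 and 0.843 in cKO 2. It was thus read in all 4 samples at a level close to that of H2-Ab1, whether or not its partner H2-Ea-ps was, and the groups overlapped. The difference was -0.11 (SE 0.094, 95% interval -0.34 to 0.12, adjusted p = 0.512, limma), which corresponds to 0.789 to 1.09-fold. Cd74 (Entrez 16149), the invariant chain, had the highest score of the 10 genes in every sample, with 2.67 in control 1, 2.83 in control 2, 2.57 in cKO 1 and 2.77 in cKO 2. Its rank among all genes was 19 to 21 and its share of all scores 0.426 to 0.446%. The groups overlapped, with a difference of -0.04 (SE 0.0773, adjusted p = 0.759, limma) and an interval of 0.85 to 1.11-fold.

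In the order of levels per length, Cd74 stood first in each sample and H2-Aa was the next in control 1, cKO 1 and cKO 2. H2-Eb1 and H2-Ab1 followed, with H2-Eb1 the higher of the 2 in each sample, although their ranges over the samples overlapped. Next came H2-Ob, H2-DMb1 and H2-DMa, then Ciita and H2-Oa at the low end, again with ranges that overlapped. In control 2, H2-Ea-ps came between Cd74 and H2-Aa. The 10 scores added up to 5.93 in control 1, 6.97 in control 2, 5.50 in cKO 1 and 6.02 in cKO 2, or 0.949, 1.09, 0.91 and 0.969% of all scores. Without H2-Ea-ps, control 2 fell to 5.82 and 0.913%, within the range of the other samples.

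H2-DMa (Entrez 14998, chr17:34272127-34276046, plus strand), the α chain of the peptide loading molecule H2-DM, had scores of 0.122 in control 1, 0.102 in control 2, 0.104 in cKO 1 and 0.113 in cKO 2. The groups overlapped, with a difference of -0.04 (SE 0.111, adjusted p = 0.848, limma) and an interval of 0.804 to 1.18-fold. H2-DMb1 (Entrez 14999, chr17:34290017-34297168, plus strand), one of its β chains, had scores of 0.142 in control 1, 0.161 in control 2, 0.117 in cKO 1 and 0.128 in cKO 2. Here both cKO samples were below both controls. The means were 0.152 ± 0.0135 and 0.122 ± 0.00738 (SD, n = 2 each), a difference of -0.31 (SE 0.0982, 95% interval -0.55 to -0.07) that did not pass over all genes (adjusted p = 0.161, limma). The other β chain gene, H2-DMb2, had scores of 0.234, 0.273, 0.187 and 0.209 in the same order, with a difference of -0.36 (adjusted p = 0.15, limma). H2-DMb1 and H2-DMb2 are near-identical neighbours that can share reads, and the ratio of H2-DMb1 to H2-DMb2 was 0.59 to 0.627 in the 4 samples. How the counting divided reads between them was not tested.

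H2-Oa (Entrez 15001, chr17:34229285-34232179, plus strand) and H2-Ob (Entrez 15002, chr17:34375848-34390850, plus strand) encode the chains of H2-DO. H2-Oa had scores of 0.0459 in control 1, 0.0351 in control 2, 0.0465 in cKO 1 and 0.0506 in cKO 2. Both cKO samples were above both controls, by little over control 1, and the difference was 0.27 (SE 0.142, 95% interval -0.07 to 0.62, adjusted p = 0.311, limma). H2-Ob had scores of 0.149 in control 1, 0.102 in control 2, 0.182 in cKO 1 and 0.178 in cKO 2. The cKO samples were again both higher and lay close together, while control 2 minus control 1 was -0.55, as large in size as the difference between the groups. The difference for H2-Ob was 0.55 (SE 0.178, 95% interval 0.11 to 0.98, adjusted p = 0.167, limma). Without control 1 it was 0.82 and passed the test (adjusted p = 0.00925, limma), and without control 2 it was 0.27 and did not, so control 2 decides its size.

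Across the members, the cKO samples were both lower than both controls in 3 (H2-Ea-ps, H2-DMb1 and Ciita) and both higher in 2 (H2-Oa and H2-Ob). For H2-Ea-ps this order cannot be measured, since control 1 (0.00008) and both cKO samples (0) were under the limit of detection given below. Over all genes tested, 30.1% were arranged the first way and 28.1% the second, so 5 of 10 is near the background. Replacing the authors' scaling by quantile normalization turned the sign of the differences of H2-Ab1, H2-DMa and Cd74 (0.04, 0.04 and 0.02 in place of -0.02, -0.04 and -0.04), and for these genes no direction can be given.

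**Figure D2:**
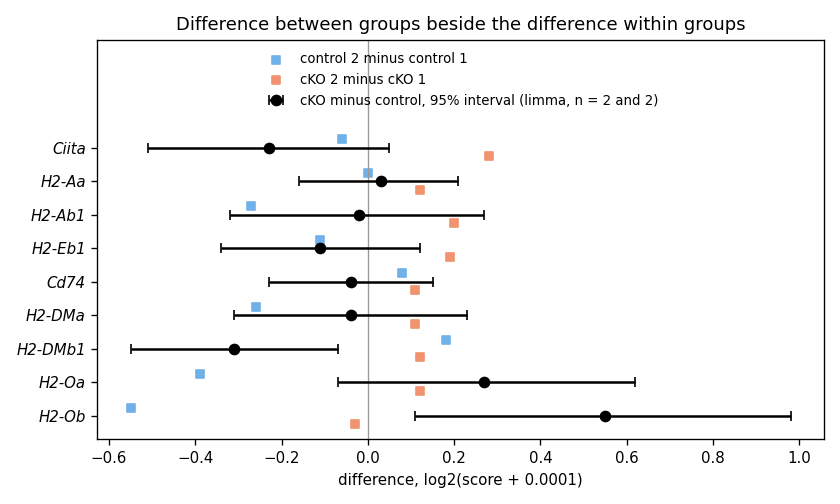
Difference between cKO and control on the log2(score + 0.0001) scale for 9 genes (black circles, with the 95% interval from limma, n = 2 and 2), beside control 2 minus control 1 (blue squares) and cKO 2 minus cKO 1 (orange squares). H2-Ea-ps is left out for scale. The intervals of H2-DMb1 and H2-Ob exclude 0 without adjustment over all genes, and the largest difference within a group is that of H2-Ob between the controls (-0.55).

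H2-Ea-ps (Entrez 14968, chr17:34478897-34481589, minus strand, annotated as a pseudogene with 1042 exon bases) had scores of 0.00008 in control 1, 1.15 in control 2, 0 in cKO 1 and 0 in cKO 2. Only control 2 had a substantial score, which ranked 106 of all genes, made up 0.18% of all scores and exceeded that of H2-Eb1 in the same sample. On the inferred steps the scores stand for 1, 21955, 0 and 0 reads. A count of 0 allows up to 3 reads, a score of 0.000145 in cKO 1 and of 0.000164 in cKO 2, and control 1 was under its own limit of 0.000161 as well. These limits cover counting error only. All 4 samples are labelled C57BL/6, and the genotype of this locus in control 2 was not tested.

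For H2-Ea-ps the comparison of cKO with control therefore rests on 1 sample. The fitted difference was -7.17 (SE 3.79, 95% interval -16.5 to 2.17, adjusted p = 0.32, limma). Against control 1 alone the mean of the cKO samples differed by -0.85, with all 3 scores under the limit of detection, and against control 2 alone it differed by -13.49. The difference inside the control group was 12.64, control 2 over control 1. Since a score near 0 stands on one side, that size depends on the pseudocount, and with 0.001 it was 10.06.

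No other member was more than 2-fold apart between the controls. Relative to control 1, control 2 differed by 0.00 for H2-Aa, -0.27 for H2-Ab1, -0.11 for H2-Eb1, -0.26 for H2-DMa, 0.18 for H2-DMb1, -0.39 for H2-Oa, -0.55 for H2-Ob, 0.08 for Cd74 and -0.06 for Ciita. H2-Ab1, H2-DMa, H2-Oa and H2-Ob had their lowest score of the 4 samples in control 2. Between cKO 2 and cKO 1, the same genes differed by at most 0.28 (Ciita). Over all genes tested, 1.2% (117 genes) were more than 2-fold apart between the controls and 0.339% (33 genes) between the cKO samples.

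The 8 class II members of chromosome 17 lie within 252305 bases (chr17:34229285-34481589). Within 500000 bases of H2-Ea-ps, 2 of 42 tested genes (4.76%) were more than 2-fold apart between the controls, H2-Ea-ps itself and H2-Eb2. H2-Eb2 (chr17:34462610-34477174), a second β chain gene of the I-E type that lies next to H2-Ea-ps, had scores of 0.0295 in control 1, 0.00962 in control 2, 0.0378 in cKO 1 and 0.0375 in cKO 2. It went the other way from H2-Ea-ps, with its lowest score in control 2. In cKO against control it differed by 1.15 (adjusted p = 0.23, limma), on the strength of control 2.

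Over a wider stretch, within 2000000 bases of H2-Ea-ps, 12 of 128 genes (9.38%) were more than 2-fold apart between the controls and 0 between the cKO samples. Over all of chromosome 17 it was 21 of 516 genes (4.07%) and again 0. The median size of the difference within 500000 bases was 0.24 between the controls and 0.10 between the cKO samples, and over all genes 0.13 and 0.11. The windows are centred on H2-Ea-ps, which was singled out for its score in control 2. Without it, 1 of 41 genes (2.44%) within 500000 bases, 11 of 127 (8.66%) within 2000000 bases and 20 of 515 (3.88%) on chromosome 17 were more than 2-fold apart between the controls. The nearer window was thus no denser in such genes than the chromosome as a whole. These shares were not tested, as they compare single samples. They include genes of multigene families, such as class I genes, among which short reads can be divided in more than 1 way.

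**Figure D3:**
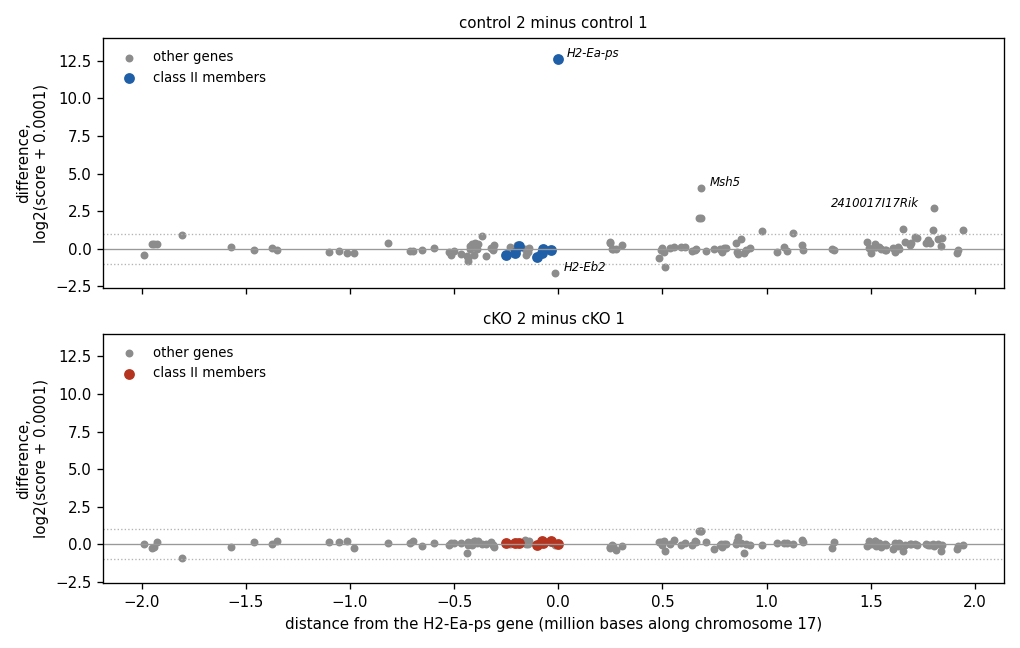
Difference between the 2 samples of a group on the log2(score + 0.0001) scale for the genes past the filter within 2000000 bases of H2-Ea-ps (1 point per gene), against distance along chromosome 17 in Mb. The upper panel gives control 2 minus control 1 and the lower panel cKO 2 minus cKO 1, with dotted lines at 2-fold. In the upper panel H2-Ea-ps stands at 12.64 and 11 other genes lie beyond the lines, and in the lower panel none does.

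The genes whose pattern was most like that of H2-Ea-ps were taken as the 10 in which the score of control 2 exceeded the highest of the other 3 by the most. Of these, 6 lie on chromosome 17, which holds 5.67% of the tested genes that have a position (516 of 9101), and all 6 lie within 4000000 bases of H2-Ea-ps. Msh5, a DNA mismatch repair family gene that acts in meiosis, came first, with scores of 0.00099 in control 1, 0.0179 in control 2, 0.00054 in cKO 1 and 0.00108 in cKO 2, a margin of 3.93 in log2 beside 12.64 for H2-Ea-ps. The others on chromosome 17 were 2410017I17Rik (2.68), H2-M2 (2.66), a class I gene of the MHC, Ng23 (2.04), D17H6S56E-3 (1.95) and A930015D03Rik (1.34). Ng23, D17H6S56E-3 and Msh5 are neighbours, and the first 2 overlap, so their margins may share reads. Elsewhere in the genome, Gm11942 (3.64), Gm8730 (2.52), Ccdc30 (1.90) and Sh2b2 (1.83) were placed among the 10.

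Ratios between partner chains do not depend on library size. The ratio of H2-Aa to H2-Ab1 was 1.20 in control 1, 1.45 in control 2, 1.41 in cKO 1 and 1.33 in cKO 2, so the groups overlapped. The ratio of H2-DMa to H2-DMb1 was 0.858, 0.633, 0.891 and 0.883 in the same order, with control 2 alone well below the others. The ratio of H2-Oa to H2-Ob was 0.307, 0.344, 0.256 and 0.284, lower in both cKO samples.

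Both ratios formed here of an H2-DO chain to an H2-DM chain were higher in both cKO samples than in both controls. H2-Ob to H2-DMb1 gave 1.05 in control 1, 0.632 in control 2, 1.55 in cKO 1 and 1.40 in cKO 2. H2-Oa to H2-DMa gave 0.376, 0.344, 0.446 and 0.449. The 2 controls differed from each other by more than control 1 differed from cKO 2 for the first ratio. With 2 samples against 2, no two-sided exact permutation test can reach 0.05, and these ratios were not tested. They partly restate the orders of H2-Oa, H2-Ob and H2-DMb1 given above, and they leave out H2-DMb2. H2-DMb1 to H2-DMb2 was also higher in both cKO samples (0.607, 0.59, 0.627 and 0.61 in the same order). How often the ratio of any 2 genes is so arranged was not computed.

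**Figure D4:**
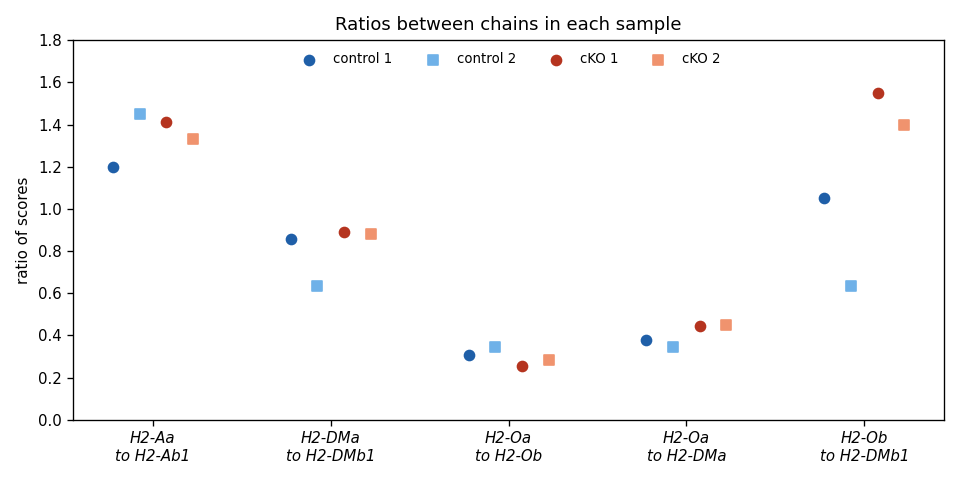
Ratio of the scores of 2 chains (linear axis from 0) in control 1, control 2, cKO 1 and cKO 2, 1 symbol per sample. H2-Oa to H2-DMa and H2-Ob to H2-DMb1 are higher in both cKO samples, with H2-Ob to H2-DMb1 at 1.55 and 1.40 beside 1.05 and 0.632 in control.

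Genes around the class II pathway were read from 6 lists, of which 58 of 61 listed genes passed the filter. Of the 58, 1 was called lower and 3 were called higher in cKO, beside 1.25% and 0.812% of all genes tested. The same shares belong beside the count of each list below. The median difference of the 58 was 0.17, beside -0.01 over all genes tested. None of the 12 transcription factors and cofactors of the class II promoters was called, with a median of 0.16. Among them were Rfx5 (-0.29, adjusted p = 0.156), a subunit of the RFX complex at the X box, Rfxank (0.25, adjusted p = 0.192), another of its subunits, and the acetyltransferase gene Crebbp (0.34, adjusted p = 0.156, all limma). Rfx5 had scores of 0.0303 and 0.0299 in control and of 0.0236 and 0.0258 in cKO.

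Of 13 regulators of Ciita, 1 was called, with a median of 0.04. Prdm1, which encodes the repressor Blimp-1, fell, with scores of 0.00835 in control 1, 0.00458 in control 2, 0.00083 in cKO 1 and 0.00075 in cKO 2. Both cKO samples were far below both controls (-2.82, SE 0.432, adjusted p = 0.0429, limma). Ciita was not higher in either cKO sample than in the controls, and a link between Prdm1 and Ciita in these cells was not tested. The call for Prdm1 was lost without control 1 (adjusted p = 0.0848, limma) and with quantile normalization (adjusted p = 0.0525, limma). Zbtb32, a repressor that acts with Blimp-1 at Ciita, had scores of 0.0741, 0.0468, 0.0186 and 0.027 (-1.39, adjusted p = 0.0686, limma). Ets1, a factor that holds back plasma cell differentiation, differed by 0.36 (adjusted p = 0.212, limma).

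The 13 genes listed around class II peptide generation, which are not all proteases, had a median difference of 0.32. Of these, 10 were higher and 2 lower in both cKO samples than in both controls, beside 28.1% and 30.1% of all genes. Such counts were 6 higher and 1 lower of 12 for class II transcription and 5 and 2 of 11 for turnover and transport. They were 5 and 1 of 7 for surface molecules towards T cells, 4 and 3 of 13 for regulators of Ciita and 1 and 1 of 2 for other class II genes. Of the 13, 1 was called higher and none lower. Ctsb, the endosomal protease cathepsin B, rose, with scores of 0.0654 and 0.0738 in control and of 0.128 and 0.112 in cKO (0.78, SE 0.107, adjusted p = 0.0362, limma). Cst3, the cysteine protease inhibitor cystatin C, had scores of 0.0654, 0.101, 0.146 and 0.125 (0.73, adjusted p = 0.135, limma). Ifi30, the lysosomal thiol reductase GILT, had scores of 0.141, 0.199, 0.0966 and 0.122 (-0.63, adjusted p = 0.149, limma).

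Of 11 genes of class II turnover and transport, 1 was called, with a median of 0.08. Cd63, a tetraspanin of late endosomes, rose from 0.00358 and 0.00434 in control to 0.00805 and 0.00862 in cKO (1.06, SE 0.163, adjusted p = 0.043, limma). Il10, a cytokine that lowers surface class II in myeloid cells, had scores of 0.00622, 0.00357, 0.0021 and 0.00178 (-1.24, adjusted p = 0.132, limma), and the tetraspanin gene Cd82 differed by 0.31 (adjusted p = 0.126, limma).

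Of 7 genes for surface molecules that act beside class II towards T cells, 1 was called, with a median of 0.19. Cd80, a ligand of CD28, rose from 0.00968 and 0.00848 in control to 0.0235 and 0.0178 in cKO (1.17, SE 0.155, adjusted p = 0.0345, limma). Cd86, the other CD28 ligand, had scores of 0.0118 and 0.0115 in control and of 0.0147 and 0.0165 in cKO (0.41, adjusted p = 0.11, limma). Cd40, the receptor for T cell help, differed by -0.32 (adjusted p = 0.207, limma). When either cKO sample was left out no gene was called over all genes, so the calls named here, that of Nfkbiz included, rest on both (for Cd80, adjusted p = 0.174 without cKO 1 and 0.0573 without cKO 2, limma). The calls for Prdm1, Ctsb, Cd63 and Cd80 were also lost without the variance trend or without the filter.

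**Figure D5:**
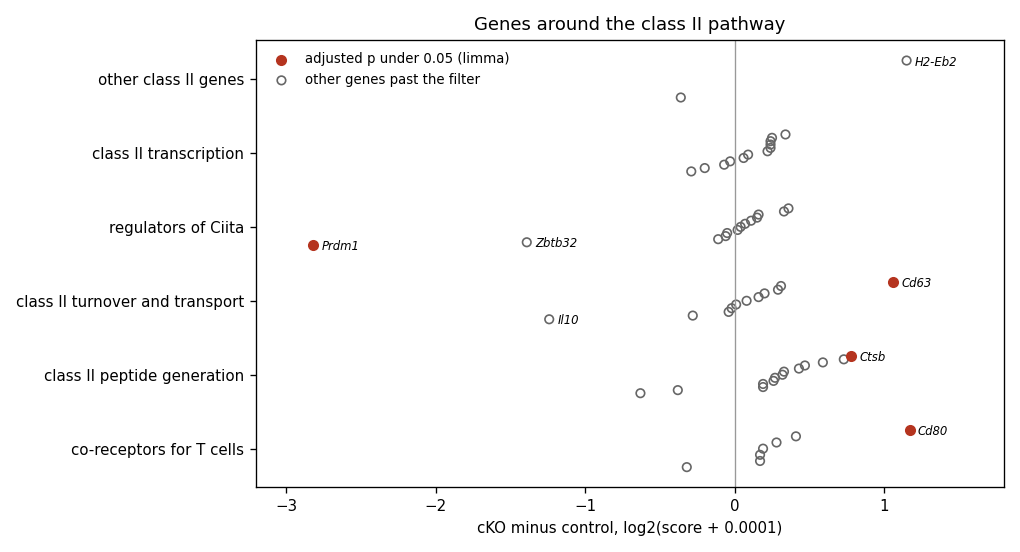
Difference between cKO and control on the log2(score + 0.0001) scale for the 58 genes of the 6 pathway lists that passed the filter, 1 circle per gene. Filled circles mark the 4 genes with an adjusted p under 0.05 (limma), Prdm1 at -2.82 and Ctsb, Cd63 and Cd80 at 0.78 to 1.17.

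Class II genes are also expressed by dendritic cells and activated macrophages, so markers of other cells were summed in each sample. Fewer cells of a type and less RNA per cell cannot be told apart in such bulk samples. The 11 B cell markers summed to 3.21 and 3.57 in control and to 3.01 and 3.05 in cKO. Of these, 2 were called lower, beside 1.25% of all genes tested. They were Cd79a (-0.78, adjusted p = 0.0294, limma), of which the Cre allele replaces 1 copy, and Fcer2a (-0.78, adjusted p = 0.0428, limma). Cd79a had scores of 0.667 and 0.743 in control and of 0.415 and 0.407 in cKO, a large part of the difference in the sums. Of the 11, 7 were lower and 2 higher (Cd79b and Blk) in both cKO samples than in both controls, beside 30.1% and 28.1% of all genes. Of 16 myeloid markers 5 passed the filter and none was called. Their sums were 0.198 and 0.188 in control and 0.228 and 0.227 in cKO, and S100a9 was listed at 0 in all samples. Itgam, the integrin gene that makes up most of the sum, had scores of 0.141, 0.15, 0.135 and 0.158. Of the 5 that passed, 3 were higher (Lyz1, Lyz2 and Cd68) and 1 was lower (Fcgr3) in both cKO samples than in both controls. Over all genes these shares were 28.1% and 30.1%, and the median difference of the 5 was 0.75. The lysozyme gene Lyz2 had scores of 0.0205, 0.0112, 0.0485 and 0.0329 (1.39, adjusted p = 0.0961, limma). The Fc receptor gene Fcgr3 had scores of 0.0148, 0.0125, 0.00867 and 0.00672 (-0.82, adjusted p = 0.0745, limma).

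Of 12 dendritic cell markers 4 passed and none was called, with sums of 0.0752, 0.0847, 0.0851 and 0.0825 and with Clec9a listed at 0. Itgax, the gene for CD11c, was at most 0.00026. Ccr7, with scores of 0.0467, 0.0575, 0.0556 and 0.0517, makes up most of the dendritic cell sum, which thus mainly follows that gene. In control 2, the sample with H2-Ea-ps, the dendritic cell sum was within the range of the other samples and the myeloid sum was the lowest of the 4. These sums mainly follow Ccr7 and Itgam, and the cells from which H2-Ea-ps came in control 2 were not tested. Of 15 T and NK cell markers 1 passed, Lck, with sums of 0.0373, 0.0494, 0.081 and 0.0758 and with Gzma listed at 0. Lck itself had scores of 0.0318, 0.0437, 0.069 and 0.0635 (0.83, adjusted p = 0.0734, limma), so the T and NK cell sum mainly follows that gene. Of 8 erythroid markers 2 passed, with sums of 0.0139, 0.00283, 0.00293 and 0.0026, highest in control 1.

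Plasma cell markers did not all go one way. Of 10, 9 passed the filter and 3 were called lower in cKO, beside 1.25% of all genes tested. They were Prdm1 and 2 genes of the endoplasmic reticulum, Creld2 (-0.80, adjusted p = 0.0345, limma) and Derl3 (-1.88, adjusted p = 0.0485, limma). Of the 9, 5 were lower and 2 higher in both cKO samples than in both controls, beside 30.1% and 28.1% of all genes. The higher ones were Sdc1, the gene for CD138, with scores of 0.00398 and 0.00418 in control and of 0.00814 and 0.00604 in cKO (0.77, adjusted p = 0.116, limma), and Irf4 (0.15, adjusted p = 0.349, limma). The scores of Sdc1 were low and measure RNA. For CD138 protein, the study reported by flow cytometry lower levels on cKO than on control B cells after LPS. The call for Derl3 was lost without control 1 (adjusted p = 0.0644, limma) and with quantile normalization (adjusted p = 0.0532, limma). Those for Cd79a, Fcer2a, Creld2 and Derl3 were lost without the variance trend, without the filter and when either cKO sample was left out. The sums over the list were 0.434 and 0.362 in control and 0.371 and 0.319 in cKO, and these overlapped. The part of these markers, of the myeloid markers and of Lck in the differences of Ciita, H2-DMb1, H2-Oa, H2-Ob and the pathway genes was not tested.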

How the data were processed

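Splenic B cells had been purified by removal of cells bearing CD43, CD4 or Ter-119 and cultured with LPS for 72 h. The dose is given as 20 mg/ml in the labels and as 20 μg/ml in the study's methods. Poly(A) RNA was sequenced as 38-base reads on an Illumina Genome Analyzer IIx, and the authors kept reads with a Phred score of at least 25, aligned them to mm9 with TopHat (the submitters' processing notes also name TopHat2 2.0, CASAVA 1.8, Bowtie, SAMtools and bedtools) and removed rRNA and tRNA reads. The counter and its use of strand are not given in the sources used here. The deposited values are 1 score per gene and sample, normalized by the authors in a way that is not stated. Between 75.4 and 82.1% of 418 to 447 low scores per sample, once multiplied by exon length, came within 0.2 of whole steps, from which reads were inferred. Such a step cannot be told apart from its fractions.

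Genes that reached 0.005 in 1 sample or more (9727 of 30041) were tested on log2(score + 0.0001) by limma 3.58.1 (R 4.3.3, functions lmFit and eBayes, the latter with a trend) with Benjamini-Hochberg adjustment over all of them and a threshold of 0.05. A count test was not used because the values are scores. The step was tested on simulated data, as was the limma fit. Gene positions are those of the GENCODE annotation of NCBIM37 (mm9), and promoters are those of RefSeq on GRCm38.p6. In the plots and ratios each sample is shown by itself, made with Python 3.11.15, pandas 2.3.3 and numpy 2.4.6.

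The members and lists were chosen with earlier results of these data known. Named were the 10 members, Nfkbiz, the called genes and the 3 largest differences of each pathway list, the 10 genes most like H2-Ea-ps, and genes within 500000 bases of it with controls over 2-fold apart. The named marker genes and the motif were chosen after their values were seen. H2-Pb was not analysed here. Alternatives were other filters, pseudocounts, scaling and variance settings, replicate blocks, another window and leaving out each sample.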

Additional observations from a re-analysis of the deposited data

How the results depend on the processing

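Of 119 differences of the 10 members under the alternatives, 108 kept their direction and their side of the threshold, 9 changed sign without passing the test and 2 passed it, H2-Ob and H2-Ea-ps, both without control 1 (adjusted p = 0.00925 and 2.8e-05, limma). Leaving out 1 sample gave -0.03 to 0.08 for H2-Aa, -0.16 to 0.11 for H2-Ab1, -0.20 to -0.02 for H2-Eb1, -13.49 to -0.85 for H2-Ea-ps, -0.17 to 0.09 for H2-DMa, -0.40 to -0.22 for H2-DMb1, 0.08 to 0.47 for H2-Oa, 0.27 to 0.82 for H2-Ob, -0.10 to 0.01 for Cd74 and -0.37 to -0.09 for Ciita. With quantile normalization H2-Ab1 was 0.04, H2-DMa 0.04 and Cd74 0.02. With a pseudocount of 0.001 the controls differed by 10.06 for H2-Ea-ps, and with a window of 2000000 bases the share of genes over 2-fold apart between controls was 9.38%.

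Counts of called genes depended far more on the settings. Over all genes (122 lower and 79 higher), 88 were lower and 35 higher with scores above 0.05, 22 and 11 without the variance trend, and 0 and 0 with no filter (limma, 1538 and 1665 at an unadjusted p under 0.05). The ranges on leaving out 1 sample were 0 to 391 lower and 0 to 439 higher. The counts were 391 and 439 without control 2, and 136 were higher without control 1. Without cKO 1 they were 0 and 0 (519 and 428 unadjusted, limma), and likewise 0 and 0 without cKO 2 (982 and 767 unadjusted, limma). Where 1 sample of a group remained, it was taken to vary as the other group does. Of the pathway genes (1 lower and 3 higher), 1 was higher with scores above 0.05, 0 were lower with quantile normalization (8 unadjusted), and 0 and 0 were called without the variance trend (8 and 14 unadjusted) or with no filter (8 and 17 unadjusted). Leaving out 1 sample gave 0 to 3 lower and 0 to 9 higher. The cause of these changes was not tested.

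Nothing states that samples with the same number belong together, and their deviations from the group means did not move together (Pearson's -0.145, Spearman's -0.291, across genes, which are not independent replicates). With a replicate block in the fit, 180 genes were called lower and 177 higher, 3 pathway genes were lower, and no member was called (H2-Ob, adjusted p = 0.0854, limma). With the numbers crossed, a pairing added after the data had been seen, 230 were lower and 212 higher, and 2 and 5 of the pathway genes. With 2 samples a group, differences of the size seen for H2-DMb1, H2-Oa and Ciita are at the limit of what can be told from the spread, and a gene such as H2-Ea-ps, present in 1 sample, cannot be read as a difference between groups.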
